A study of Mus musculus with 4 samples.

Results

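Accessible chromatin was examined around 7 mouse genes, the Hand, Twist and Snail transcription factor genes Hand1, Hand2, Twist1, Twist2, Snai1 and Snai2, together with Hdac9, the neighbour of Twist1. A region was taken for a gene when the closest protein-coding transcription start to its centre belonged to that gene, or when its centre lay within 2.5 kb of the gene's start. Regions inside the Hdac9 gene body were in addition considered for Twist1. By this rule 49 of the 42613 accessible regions in the E9.5 list and 65 of the 46765 in the E10.5 list belonged to the 7 genes, out of 22380 protein-coding genes in the annotation. Both lists come from ATAC-seq, in which a transposase inserts sequencing adapters into open chromatin, on wild-type NMRI embryos. In the E9.5 group each of the 2 replicates was the forelimb pair of 1 embryo with the adjoining trunk still attached, and the protocol dates this stage to embryonic day 9.75. In the E10.5 group each of the 2 replicates was the forelimb pair of 1 embryo, and no trunk is named for it, although its tissue label names hindlimb buds as well. Stage and trunk tissue therefore cannot be told apart in any comparison, and in bulk tissue neither can fewer cells of a type and a weaker signal per cell.

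HAND and TWIST proteins are basic helix-loop-helix factors that pair with E proteins and bind E-boxes, short sequences of the form CANNTG. In the limb bud, HAND2 marks the posterior mesenchyme and activates Shh in mutual antagonism with GLI3, while TWIST1 is needed for limb bud outgrowth and for signalling between the mesenchyme and the ectodermal ridge. SNAI1 and SNAI2 are zinc finger repressors that bind E-boxes in genes such as Cdh1 and act during the conversion of epithelium to mesenchyme. Hdac9 codes for a class II histone deacetylase, and its gene body is known to hold limb enhancers of Twist1.

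The sequences with the strongest distal signal are shown first, because much of the difference between the lists lay in distal regions. Each line gives 300 bases of the mm9 plus strand around the centre of an E10.5 region, and capitals mark every E-box (CANNTG, which reads the same way on both strands). The first is the highest-scoring distal region of Hand2, at chr8:59441091-59441390, in intergenic DNA. The next is the highest-scoring distal region of the Twist1 set, at chr12:34885505-34885804, in an Hdac9 intron. The third is the highest-scoring distal region of Snai2, at chr16:14701482-14701781, in intergenic DNA. The last is the highest-scoring E10.5 region without a counterpart at E9.5, at chr8:59612996-59613295, also in the intergenic DNA upstream of Hand2.
Hand2, shared distal: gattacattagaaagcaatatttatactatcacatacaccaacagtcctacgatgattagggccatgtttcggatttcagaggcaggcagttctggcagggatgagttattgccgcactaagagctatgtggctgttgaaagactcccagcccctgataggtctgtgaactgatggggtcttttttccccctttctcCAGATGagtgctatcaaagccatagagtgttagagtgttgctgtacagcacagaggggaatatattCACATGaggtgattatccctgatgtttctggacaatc
Hdac9 intron, shared: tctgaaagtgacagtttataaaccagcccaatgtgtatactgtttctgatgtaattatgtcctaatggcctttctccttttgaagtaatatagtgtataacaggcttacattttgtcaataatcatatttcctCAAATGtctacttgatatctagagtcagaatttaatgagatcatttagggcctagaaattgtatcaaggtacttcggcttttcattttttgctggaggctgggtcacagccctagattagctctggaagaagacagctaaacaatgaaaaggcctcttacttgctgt
Snai2, shared distal: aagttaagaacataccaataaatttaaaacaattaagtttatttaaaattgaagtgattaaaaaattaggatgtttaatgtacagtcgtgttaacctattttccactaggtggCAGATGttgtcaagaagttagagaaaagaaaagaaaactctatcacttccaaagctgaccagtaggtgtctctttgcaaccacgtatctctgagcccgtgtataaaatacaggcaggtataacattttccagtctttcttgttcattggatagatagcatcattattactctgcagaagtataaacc
Hand2, E10.5-specific distal: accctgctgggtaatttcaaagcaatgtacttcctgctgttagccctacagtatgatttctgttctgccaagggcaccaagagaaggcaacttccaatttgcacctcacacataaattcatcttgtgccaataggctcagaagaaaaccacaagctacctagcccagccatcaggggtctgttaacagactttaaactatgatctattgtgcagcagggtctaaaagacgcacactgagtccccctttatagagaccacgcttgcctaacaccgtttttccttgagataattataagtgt

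The Hand2 distal window held 2 E-boxes, of which 1 was CAGATG, the Hdac9 intron window held 1 (CAAATG) and the Snai2 window held 1 (CAGATG), whereas the E10.5-specific Hand2 window held 0. Such words are common: CANNTG was present in 84.2% of the windows of all 31376 distal E10.5 regions and in 51 of the 60 distal member windows (85.0%). The E-box variant CAGATG, which is 1 form of CANNTG and was counted on both strands, was found in 31.4% of all distal E10.5 windows and in 23 of the 60 member windows (38.3%). CACCTG, the E-box variant known for Snail proteins, was counted in the same way and was present in 19.5% of all distal E10.5 windows and in 9 of 60 member windows (15.0%). The GLI word TGGGTGGTC was in 0 of 60 member windows and 0.354% of all distal E10.5 windows. The SMAD words GGCGCC and, separately, GTCT were in 5 of 60 (8.33%, with 4.55% overall) and 54 of 60 (90%, with 90.5% overall). The window is tied to the region centre, and at E9.5, when the same Hand2 distal region had a slightly different centre, its window held 0 E-boxes. A match of letters is a description of these windows and not a binding site.

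The deposited score of a region is 10 times the negative log10 of a peak-calling p-value and rises with sequencing depth, which is unknown here. Scores are therefore compared across the lists by their percentile within each list, where the E9.5 list had a median of 260.35 and the E10.5 list one of 241.31. As each stage is 1 combined list, no value has a replicate error and no test was made. Intervals on shares are 95% Wilson intervals that cover counting error only. As a check of the tissue, all 4 limb mesenchyme genes examined (Prrx1, Lhx2, Lhx9, Msx1) had a promoter region in both lists, and the forelimb gene Tbx5 had a weak one in both, with scores of 89.91 and 74.17. Trunk genes were open at both stages too. All 4 somite genes (Tcf15, Meox1, Pax1, Pax3) and the 2 matched neural tube genes (Pax6, Olig2) had a promoter region in each list. The highest promoter scores of these 6 genes ran from 175.04 to 2647.85 in the E9.5 list and from 105.38 to 1791.64 in the E10.5 list. Of the 3 hindlimb genes (Tbx4, Pitx1, Isl1), 3 had an E9.5 promoter region and 2 an E10.5 one. Of the 4 vessel and blood genes (Kdr, Cdh5, Tal1, Gata1), 2 had one in each list, and of the 3 ectoderm genes (Krt5, Trp63, Cdh1), 1 had one at E9.5 and 0 at E10.5. An open promoter is not a measure of expression, and the part of these tissues in the results was not tested.

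The first question was how many regions each gene had at each stage and how many of them were stage-specific, that is, without an overlap of at least 1 bp with the other list. Hand2 had 10 regions at E9.5 and 19 at E10.5, and Hdac9 had 14 and 18. Twist1 had 5 and 7, Twist2 had 9 and 10, Snai2 had 2 and 4, and Hand1 had 1 in each list. Snai1 alone had fewer at E10.5, with 8 regions at E9.5 and 6 at E10.5. Of the E9.5 regions, 15 of 49 were stage-specific (30.6%, interval 19.5 to 44.5%), against 29.9% of the whole list. Of the E10.5 regions, 32 of 65 were stage-specific (49.2%, 37.5 to 61.1%), against 35% of the whole list. Among distal regions the shares were 13 of 42 (31.0%, 19.1 to 46.0%) at E9.5, where 40.3% of all distal regions were stage-specific, and 32 of 60 (53.3%, 40.9 to 65.4%) at E10.5, where the background was 49.6%. The distal share at E10.5 was thus near that of all distal regions, while 60 of the 65 member regions were distal, compared with 31376 of 46765 in the whole list. Of the 7 promoter regions at E9.5, 2 were stage-specific (Hand1 and Hdac9), against 13.1% of all promoter regions. At E10.5, 0 of 5 were stage-specific, against a background of 5.31%.

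**Figure D1:**
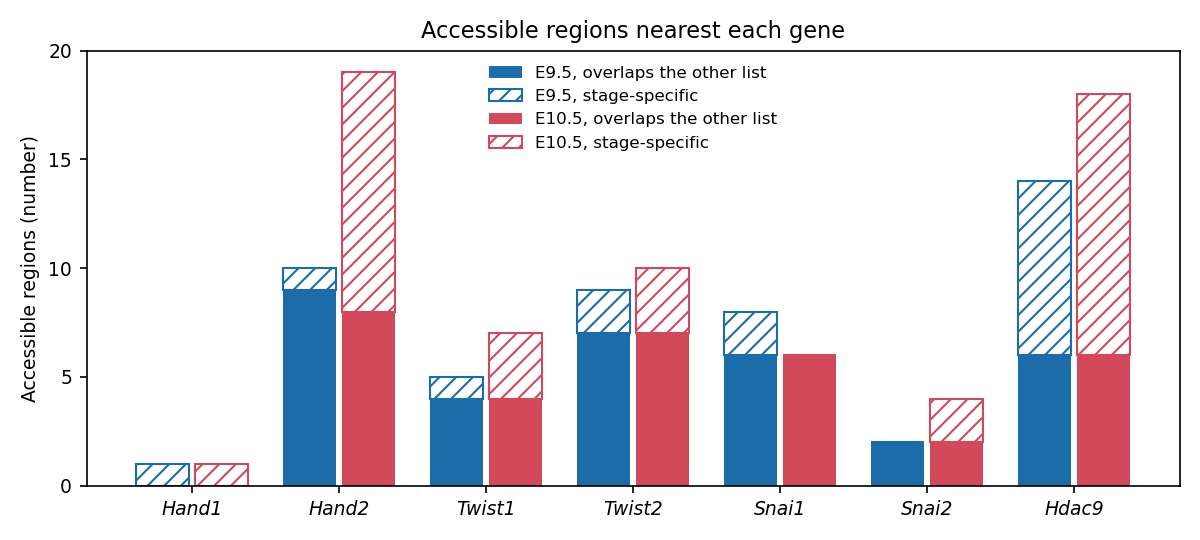
Number of accessible regions nearest each of the 7 genes (vertical axis) in the E9.5 list (blue) and the E10.5 list (red), with filled parts for regions that overlap the other list and hatched parts for stage-specific regions. The hatched part is widest for Hand2 at E10.5 (11 of 19 regions) and for Hdac9 in both lists (8 of 14 and 12 of 18), and is missing for Snai1 at E10.5 (0 of 6).

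The 7 genes stood at different places among the 22238 protein-coding genes compared. As many regions as Hand2 or more were seen for 544 genes at E9.5 and for 165 genes at E10.5. The E10.5-specific regions of Hand2 outnumbered its E9.5-specific region by 10, a surplus reached by 119 genes in all. Hdac9 was also among the genes with many regions, as 204 genes at E9.5 and 197 at E10.5 had as many or more. The stretch over which Hand2 was the closest gene spanned 452 kb, compared with 536 kb for Hdac9, 53.6 kb for Snai1 and 18.4 kb for Hand1. Per 100 kb of it, Hand2 had 2.21 regions in the E9.5 list and 4.20 in the E10.5 list, Hdac9 had 2.61 and 3.36, and Snai1 had 14.9 and 11.2. The part of this span in the counts was not tested.

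Hand2 (chr8:59799780-59803314, plus strand) differed most between the lists far upstream of the gene. More than 10 kb upstream there was 1 region at E9.5 and there were 10 at E10.5, of which 9 were stage-specific (90%, 59.6 to 98.2%). This split at 10 kb was not set in advance, and the interval makes no allowance for its choice. From 10 kb upstream to the last region 32.8 kb downstream there were 9 regions in each list, with 1 specific to E9.5 and 2 specific to E10.5. The nearest protein-coding start on the upstream side, that of Fbxo8, is 770 kb away, and the one on the other side, Scrg1, is 135 kb away, so all the distal upstream regions lie in a long stretch without protein-coding starts.

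The 9 E10.5-specific upstream regions lay between 27.3 and 337 kb from the Hand2 start and were 811 to 1051 bp wide. Their scores ran from 110.94 to 607.58 with a median of 277.67, which places them between percentiles 13.5 and 76.0 of the E10.5 list. The highest, 607.58, belonged to the region 187 kb upstream (chr8:59612679-59613613) whose sequence is printed above with 0 E-boxes, and the next, 379.39, to the region 27.3 kb upstream (chr8:59772064-59772910). These regions were moderate in signal. All 9 overlapped no annotated gene. Their windows had a GC content of 36 to 48%. Among all E10.5 regions at least 10 kb from a start, 53.1% (52.4 to 53.7%) were stage-specific, and among the 14097 of them with a GC content in that range 67.8% (67.0 to 68.5%) were. The part of GC content in the Hand2 count was not tested.

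The single region more than 10 kb upstream of Hand2 that was present at both stages was also the one with the highest distal score at E10.5. It lies 359 kb upstream (chr8:59440451-59442031 at E10.5), and it scored 229.75 in the E9.5 list and 1508.25 in the E10.5 list. That is a move from percentile 45.9 to percentile 92.8, or 46.9 points. Of the 2988 shared regions in the same score decile at E9.5, 99.6% moved by less, and of the 794 with a like GC content as well, 99.0% did. The region widened from 1064 to 1581 bp. Its distance from Hand2 places it beyond all the E10.5-specific upstream regions.

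Near the gene the Hand2 regions were largely the same in both lists. The promoter region had an E9.5 score of 894.81 and an E10.5 score of 1364.09, a change from percentile 77.7 to 91.4. At E9.5 the signal was split into a promoter region of 2208 bp and a region of 1028 bp over the 3′ part of the gene with a score of 165.38, and both lay within 1 region of 4743 bp at E10.5 (chr8:59798261-59803003), wider than 99.8% of that list. A region 7.7 kb downstream scored 1023.52 and 1193.73 in turn. The region 13.0 kb downstream scored 769.56 and 702.66, and the one 32.8 kb downstream scored 847.83 and 639.58, which left both within 5 percentile points of their E9.5 position. The regions 10.9, 13.0 and 20.3 kb downstream touch exons of 5033428I22Rik, a lincRNA gene, and with the starts of all gene types counted Hand2 kept 5 E9.5 and 13 E10.5 regions. The only E9.5-specific region, 4.7 kb downstream (chr8:59803873-59805057), scored 200.82. Of the 9 shared Hand2 regions, 0 were lower at E10.5 by 10 or more percentile points.

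**Figure D2:**
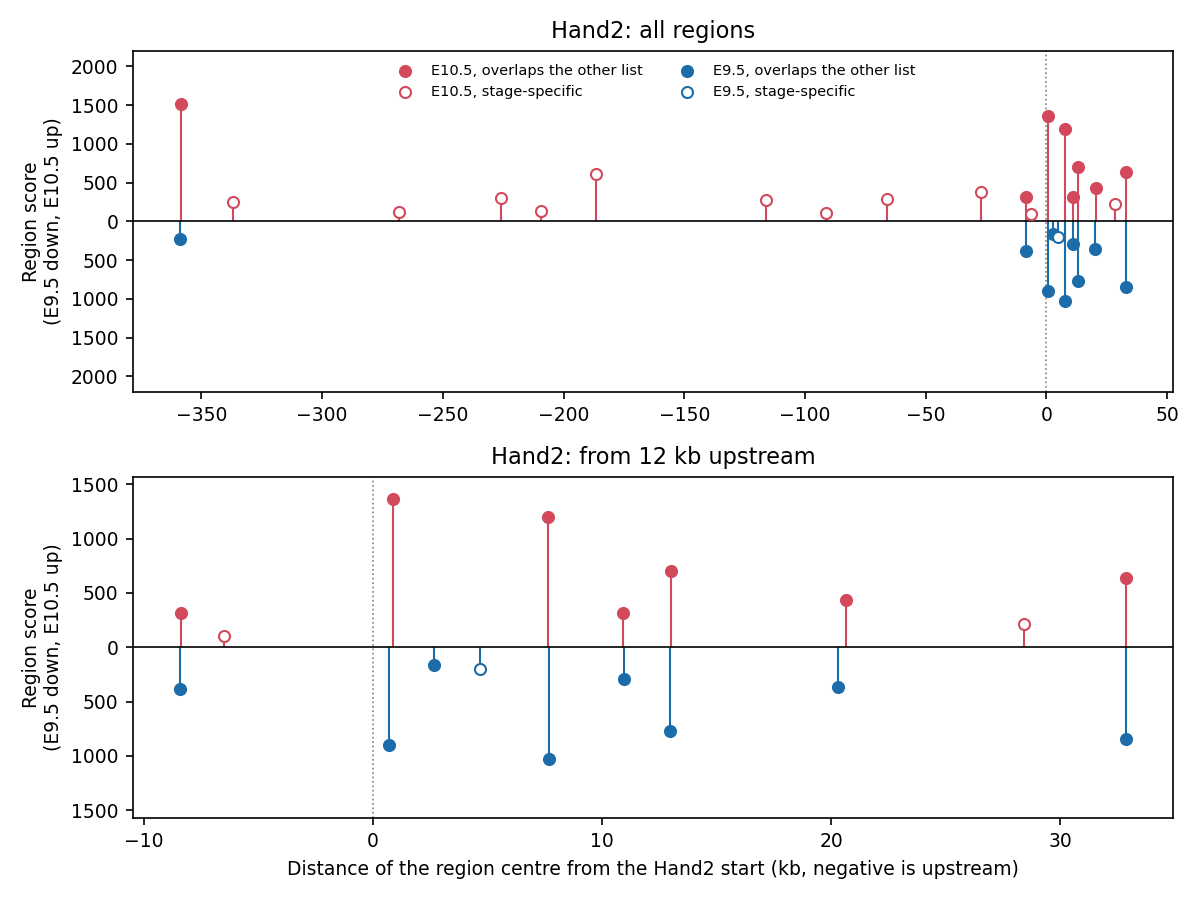
Score of each Hand2 region (vertical axis, E10.5 upwards in red and E9.5 downwards in blue) by the distance of its centre from the Hand2 start in kb, over all regions (upper panel) and from 12 kb upstream (lower panel), with filled points for regions that overlap the other list and open points for stage-specific ones. The 9 open E10.5 points more than 10 kb upstream lie 27.3 to 337 kb from the start, with scores of 110.94 to 607.58. The other 2 lie 6.5 kb upstream (99.14) and 28.4 kb downstream (216.90). The region 359 kb upstream scored 229.75 at E9.5 and 1508.25 at E10.5.

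Twist1 (chr12:34642536-34644682, plus strand) had the highest promoter score of the 7 genes in both lists. Its promoter region scored 2723.76 in the E9.5 list and 2109.56 in the E10.5 list, at percentiles 96.9 and 96.5, and was 3758 and 3443 bp wide. A second wide region about 10 kb downstream scored 984.77 at E9.5 (chr12:34650676-34654047) and 1098.87 at E10.5. Both of these regions were in place at each stage. Of the weaker regions between them, the one 6.7 kb downstream scored 148.59 and 306.47, and the one about 5 kb downstream scored 161.48 and 127.45. The only E9.5-specific region nearest Twist1, 156 kb downstream and inside Hdac9, scored 138.61. At E10.5 the specific regions with the highest scores lay 14.5 kb upstream (143.60) and 88.5 kb downstream (130.65). All of these stage-specific regions were weak, at or below percentile 27.5 of their list.

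The Hdac9 gene body (chr12:34732451-35213754, minus strand), which faces Twist1 from the other side, held 13 E9.5 and 11 E10.5 regions. Of these, 9 of 13 (69.2%, 42.4 to 87.3%) and 7 of 11 (63.6%, 35.4 to 84.8%) were stage-specific. The E9.5 count includes the Hdac9 promoter, and without it 8 of 12 (66.7%, 39.1 to 86.2%) were stage-specific. Over all regions at least 10 kb from a start the shares were 40.2% in the E9.5 list and 53.1% in the E10.5 list. Both lie within the intervals of the distal gene-body regions. With all gene-body regions the Twist1 set counted 17 in each list, 9 of them stage-specific in each. Of the 13 E9.5 regions in the gene body, 4 touched an Hdac9 exon and 9 were intronic, and of the 11 E10.5 regions 2 touched an exon and 9 were intronic.

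The 4 regions of the gene body present in both lists all had higher scores at E10.5. The region 243 kb from the Twist1 start (chr12:34884506-34886803 at E10.5, intronic) scored 320.90 at E9.5 and 1544.28 at E10.5, and its sequence is printed above. The region 258 kb from the start (chr12:34899731-34901380, touching an exon) scored 179.55 and 1052.40. The region 263 kb from the start (chr12:34904498-34906619, touching an exon at E10.5) scored 178.73 and 960.72. The region 312 kb from the start (chr12:34954256-34955522, intronic) scored 124.36 and 1123.18. All of them were also wider at E10.5, from 798 to 1008 bp at E9.5 to between 1267 and 2298 bp. In percentile points they moved by 37.1, 50.5, 49.0 and 69.5. Among shared regions of the same E9.5 score decile and a like GC content, 97.0%, 98.0%, 94.4% and 98.8% moved by less.

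A similar change was seen upstream of Hdac9. The region 109 kb upstream of its start, 680 kb from Twist1 (chr12:35321611-35323242), scored 296.84 in the E9.5 list and 1219.67 in the E10.5 list, a move of 35.7 points. A second shared region there, 130 kb upstream, stayed weak with scores of 100.47 and 109.47. Upstream of the gene 8 regions were listed at E10.5 and 2 at E9.5, and 6 of the 8 were specific to E10.5 (75%, 40.9 to 92.9%), an interval that includes the 53.1% of all E10.5 regions at least 10 kb from a start.

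The Hdac9 promoter was listed at E9.5 only. Its region (chr12:35212944-35214281) scored 383.73, percentile 60.5, and was the E9.5-specific member region with the highest score, while 0 E10.5 regions had their centre within 2.5 kb of an Hdac9 start. The next E9.5-specific region of Hdac9, 38.1 kb downstream of its nearest start, scored 259.80. At E10.5 the specific regions with the highest scores lay 203 kb (362.35) and 31.2 kb (271.62) downstream of the nearest start, both in the gene body. Around Hdac9 the lists thus differed in both directions, and only 19.6% of the bases covered by either list were common to both, compared with 63.9% for Twist1 and 48.3% for Hand2.

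**Figure D3:**
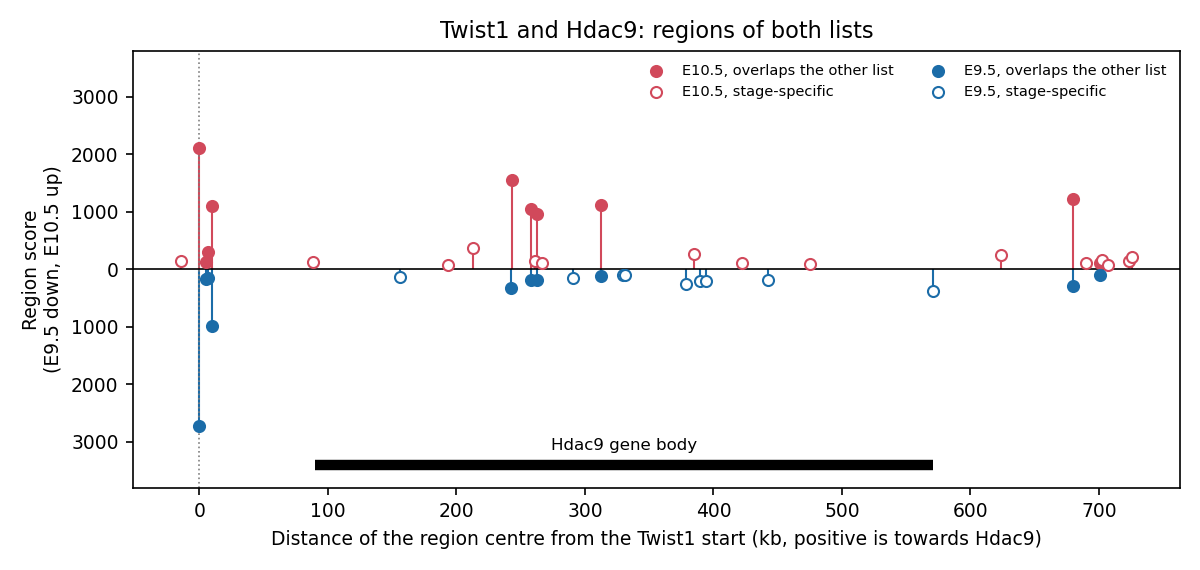
Score of each region of Twist1 and Hdac9 (vertical axis, E10.5 upwards in red and E9.5 downwards in blue) by the distance of its centre from the Twist1 start in kb, with a black bar for the Hdac9 gene body, filled points for regions that overlap the other list and open points for stage-specific ones. The Twist1 promoter is the tallest in both lists (2723.76 and 2109.56), and the 4 filled pairs in the gene body are all higher at E10.5 (960.72 to 1544.28) than at E9.5 (124.36 to 320.90).

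Twist2 (chr1:93698038-93744605, plus strand), a factor known from dermis and craniofacial mesenchyme, had a promoter region of similar rank in both lists. Its E9.5 score was 1350.22 and its E10.5 score 1195.49, at percentiles 85.8 and 89.2, and was 4157 and 2495 bp wide. The region 43 kb downstream, inside the gene, scored 755.48 and 644.44. Upstream, the region 31 kb away (chr1:93666454-93667931 at E10.5) scored 219.48 and 564.87, higher by 30.03 points. The region 46 kb upstream scored 157.66 and 273.68. Of the 7 shared regions, 4 were higher at E10.5 by at least 10 points and 1 was lower. All 5 were upstream of the gene. Of shared regions in the same E9.5 score decile with a like GC content, 96.1% moved by less than the region 31 kb upstream. For the higher regions 115, 72 and 46 kb upstream these shares were 80.04%, 72.0% and 73.6%, so many like regions rose as much. For the lower region, 53.6 kb upstream, 6.23% of like regions moved lower still. The stage-specific regions were weak to moderate. At E9.5 they were 44.0 kb upstream (159.81) and 15.4 kb downstream (141.30), and at E10.5 the highest were 69.7 kb (235.89) and 41.1 kb (153.43) upstream.

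Snai1 (chr2:167363695-167368314, plus strand) differed from the others in having less at E10.5. Its promoter region scored 1240.14 at E9.5 and 533.68 at E10.5 and was 2086 and 948 bp wide, which is percentile 84.2 in the first list and 73.0 in the second. The region about 5 kb downstream, over the end of the gene, scored 959.37 and 459.34. The region 26 kb downstream (chr2:167389042-167390875 at E9.5) scored 221.42 and 92.03, from percentile 44.6 to 5.38, and its neighbour 27.7 kb downstream scored 223.87 and 171.87. The region 3.2 kb downstream was the exception, with 132.40 and 146.52. Of the 6 shared regions, 3 were lower at E10.5 by at least 10 points and 0 were higher, with a median difference of -10.5 points.

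The E9.5-specific regions of Snai1 lay 21.6 kb downstream (170.33) and 5.8 kb upstream (73.17), and 0 of the 6 E10.5 regions were specific (0 to 39.0%). Its regions covered 11215 bp in the E9.5 list and 5607 bp in the E10.5 list, and 5457 bp of the latter were covered in both. The downstream regions from 14.9 kb on overlap Gm11476, a processed transcript. With the starts of all gene types counted, Snai1 kept 3 regions in each list. Among shared regions of the same E9.5 decile and like GC content, 24.6% moved lower still than the promoter region and 6.06% lower still than the region 26 kb downstream. For the regions about 5, 14.9 and 27.7 kb downstream these shares were 13.4%, 33.4% and 56.1%. Snai1 is among the genes that the study chose with these ATAC lists as targets of SMAD4, so its open promoter is not independent of that choice.

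Snai2 (chr16:14705945-14709488, plus strand), the second Snail repressor, had a strong promoter and few other regions. The promoter region had an E9.5 score of 1549.22 and an E10.5 score of 1962.60, at percentiles 88.5 and 95.8. The region 4.3 kb upstream, whose E10.5 sequence is printed above, scored 93.50 and 178.30. At E10.5 there were also regions 6.3 kb (145.09) and 94.6 kb (151.24) downstream, both stage-specific and at percentiles 28.1 and 30.1. Neither shared region of Snai2 had a lower percentile at E10.5, whereas 5 of the 6 of Snai1 did, but the difference between the genes was not tested. The Snai2 region 4.3 kb upstream began at percentile 4.94 and had little room to fall. Shared regions of like E9.5 score and GC content had a median change of 26.7 points.

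Hand1 (chr11:57642207-57646320, minus strand), a factor of heart, extraembryonic and ventral mesoderm, had 1 region per list, and these did not overlap. At E9.5 it was a promoter region (chr11:57644634-57645914) with a score of 112.21, percentile 13.0. At E10.5 it lay 4.3 kb downstream of the start, past the end of the gene (chr11:57640670-57641990), with a score of 291.38, percentile 56.5.

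The shared regions were then compared as a group. An E9.5 region was counted as higher or lower at E10.5 when its percentile differed by at least 10 points, a limit chosen after values had been seen. Of the 34 shared E9.5 regions of the 7 genes, 14 were higher (41.2%), against 24.2% of all 29883 shared regions, and 5 were lower (14.7%), against 24.6%. The median change was 7.75 points, and 0.09 points over all shared regions, 90% of which lay between -34.7 and 39.3 points. Of the 34 member regions 29 were distal, compared with 15693 of the 29883. The change also varied with the starting score. Shared regions like the distal Snai2 region (E9.5 percentile 4.94) in score and low GC content had a median change of 26.7 points. Those like the Hdac9 region at E9.5 percentile 56.0, also of low GC content, had one of 3.73 points. The part of position and of starting score in the shares was not tested. The Hdac9 regions made up 5 of the 14 that were higher, Twist2 4 and Hand2 3, and 2 of the 3 for Hand2 share 1 E10.5 region. The 5 that were lower were 3 of Snai1, 1 of Twist1 and 1 of Twist2.

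**Figure D4:**
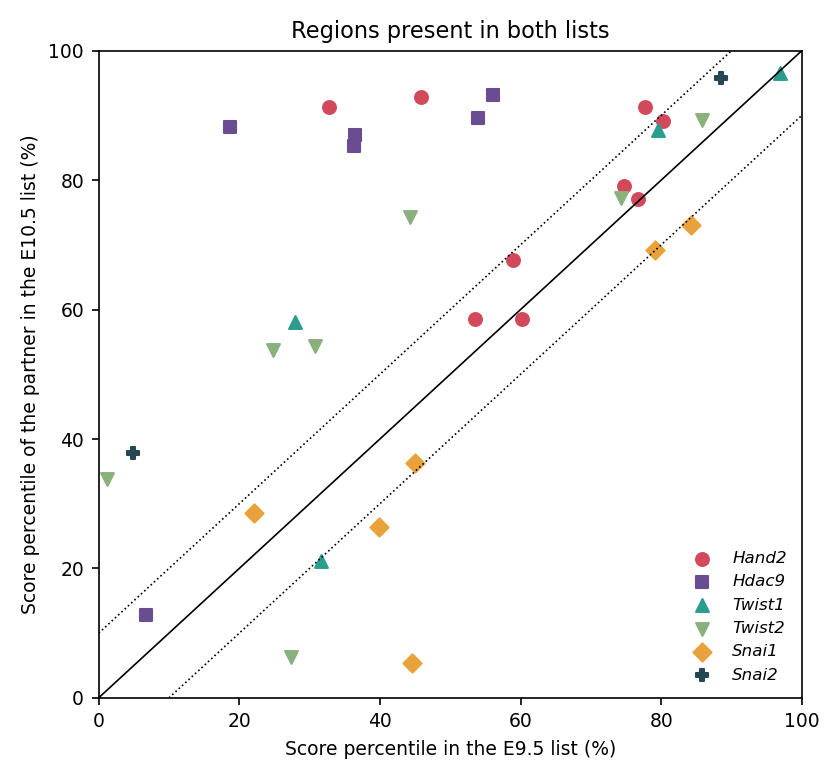
Score percentile of each shared E9.5 region (horizontal axis) against that of its E10.5 partner (vertical axis), one point per region and one symbol per gene, with equal percentiles on the solid line and differences of 10 points on the dotted lines. Of the 6 purple squares of Hdac9, 5 lie far above the line, as do 2 red circles of Hand2, and the orange diamonds of Snai1 lie mostly on or below it.

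GC content moved with these changes over the whole lists. Shared E9.5 regions in the lowest GC quintile (23 to 48%) were higher at E10.5 in 51.3% of cases and had a median change of 10.8 points, and those in the highest quintile (67.5 to 88.3%) were higher in 1.74% and had a median of -3.55 points. Median GC content was 44.2% in the E10.5-specific member regions and 54.7% in the shared ones, compared with 44.3% and 55.7% in the whole list. The 5 Hdac9 regions that were higher at E10.5 by at least 10 points had a GC content of 43.3 to 48.7%, the shared Hand2 region 359 kb upstream one of 46.7%, and the Snai1 promoter region, which was lower, one of 71.7%. The promoter region of Hand2 went the other way, with a GC content of 81.0% and a difference of 13.6 points that exceeded that of 99.5% of the 832 shared regions of like score and GC content. The region 26 kb downstream of Snai1 had a GC content of 51.7%. The part of GC content in the other changes was not tested.

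**Figure D5:**
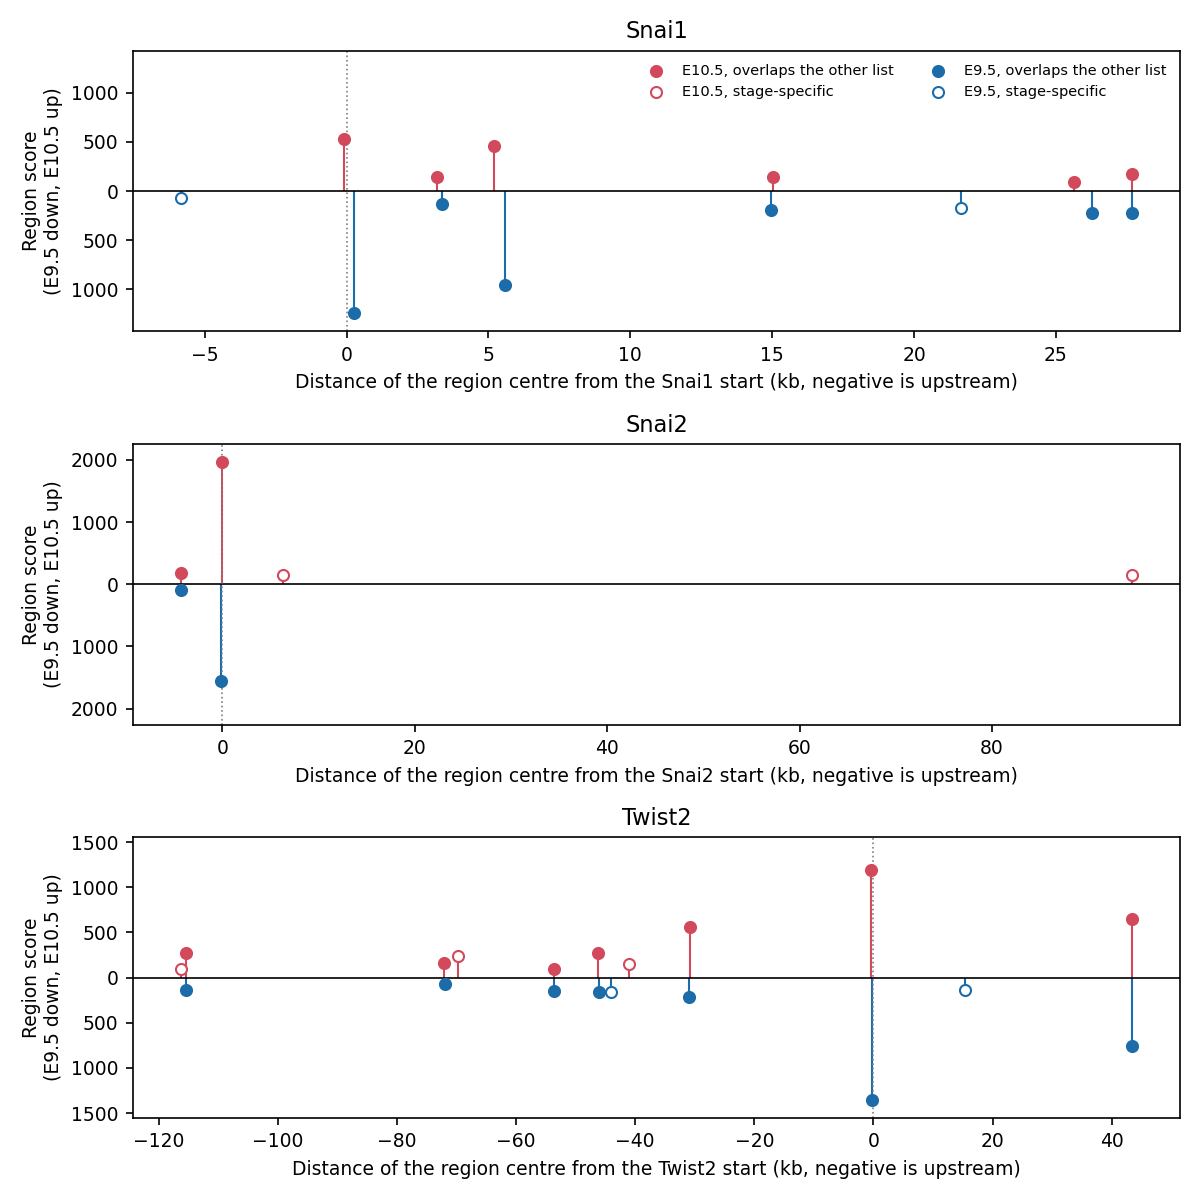
Score of each region of Snai1, Snai2 and Twist2 (vertical axes, E10.5 upwards in red and E9.5 downwards in blue) by the distance of its centre from the start of the gene in kb, with filled points for regions that overlap the other list and open points for stage-specific ones. The Snai1 promoter is lower at E10.5 (533.68) than at E9.5 (1240.14), that of Snai2 is 1962.60 at E10.5 and 1549.22 at E9.5, and the Twist2 region 31 kb upstream is 564.87 at E10.5 and 219.48 at E9.5.

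Genes that work with the members or belong to the same families were examined as a list of 22. A promoter region was present for 21 of them at E9.5 and for 17 at E10.5. Their regions were counted by the nearest start only, which gives Msc 0 although a region lies within 2.5 kb of its start in each list. Of these regions, 67 of 151 in the E9.5 list (44.4%, 36.7 to 52.3%) and 66 of 153 in the E10.5 list (43.1%, 35.6 to 51.1%) were stage-specific, against 29.9% and 35% of the whole lists. Among all distal regions the shares were 40.3% and 49.6%. The counts of the 22 genes include promoter regions, and a share for their distal regions alone is not given here. The 3 E protein genes, whose products pair with HAND and TWIST, had 16 of 36 regions specific to E9.5 (44.4%) and 7 of 27 specific to E10.5 (25.9%), and all 3 kept a promoter region. The 8 other tissue-restricted bHLH genes had 12 of 31 (38.7%) and 4 of 23 (17.4%) specific regions. The promoter of Tcf21, a factor of visceral mesoderm, scored 389.52 at E9.5 and had no region at E10.5. Among the other Snail and Zeb genes, Zeb2, a repressor of Cdh1, had 24 regions at E9.5 and 33 at E10.5, and Snai3 had 1 at E9.5 and 0 at E10.5.

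Of the 6 genes known to act beside or downstream of the members in limb or mesenchyme, Gli3, the antagonist of Hand2, had 16 regions at E9.5 (7 specific) and 24 at E10.5 (15 specific), and its promoter was at or above the score of 3100 at which the scale saturates in both lists. Prrx1, a limb mesenchyme factor, had 3 and 11 regions, with 0 and 6 specific. Shh, the target of HAND2, had 4 and 6. Cdh2 had 10 and 18, with 3 and 11 specific. Tbx3 went the other way, with 13 regions at E9.5 (9 specific) and 7 at E10.5 (3 specific). Cdh1, the epithelial cadherin repressed by Snail factors, had 2 regions at E9.5, with a promoter score of 150.21, and 0 at E10.5.

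The genes most like each member were sought by the sum of absolute differences in 4 counts, the shared and specific regions in each list, over the 2 stages. For Hand2 these were Fzd1, at a distance of 1, and Dusp26, at a distance of 2. For Hdac9 they were Odz3 (1) and Rbfox1 (3). Exact matches were found for Twist1 (Rsu1 and Sesn3, of 9 genes with the same counts), Twist2 (Gramd3 and Lef1, of 5), Snai1 (Sec14l1 and Ece1, of 7) and Snai2 (Wdr60 and Ubxn2b, of 120). Few genes had counts close to those of Hand2 and Hdac9, while those of Snai2 were common. The distance was not scaled to the size of the counts, and the median gene had 1 region in each list.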

How the data were processed

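ATAC-seq regions of 2 stages were analysed, each a list that the authors combined from 2 biological replicates. Reads were mapped by the authors on mm9 (Bowtie 1.1.0), who called regions in each replicate with MACS 1.4, and joined the replicates with MSPC at a stringent p-value of 1e-10 and a weak p-value of 1e-06. The deposited score, per its values, is 10 times the negative log10 of a MACS p-value. It saturates at about 3100, which no member region reached. Read totals were not used, so depth is unknown and limits the detection of weak regions.

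Regions were annotated from their centres with GENCODE vM1 on NCBIM37, whose chromosomes no region exceeded. Promoter regions had their centre within 2.5 kb of a protein-coding start, and the others were distal. Shared regions overlapped the other list by at least 1 bp. The best-scoring partner was used for percentile changes. Motifs were counted on both strands of 300-base windows. Python 3.11.15, pandas 2.3.3, numpy 2.4.6 and matplotlib 3.10.9 were used, and the overlap and assignment steps were checked on simulated data.

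For each gene and list, every promoter region, the 3 highest-scoring distal and the 2 highest-scoring stage-specific regions were named; further regions and genes were named after their values were seen. The 2 most similar genes were named for members with at least 5 regions. Members and gene lists were chosen with earlier results of these data known. The limit of 10 percentile points and the GC comparisons were chosen after values were seen. The split of the Hand2 regions 10 kb upstream was not planned either.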

Additional observations from a re-analysis of the deposited data

How the results depend on the processing

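No paired analysis was possible because the replicates of a stage are merged into 1 list, and for the same reason no replicate could be left out. Of 31 values over all members recomputed under other settings, 23 stayed close and 8 moved. A count stayed close when it changed by a factor of at most 1.5. A share did so when it lay within the 95% interval of its main value. These intervals are wide, so a change from 30.6% to 20% at E9.5 was still called close. In the higher-scoring 50% of each list the members had 17 regions at E9.5 and 34 at E10.5. Of the former 5.88% were stage-specific, and of the latter 52.9%. Set against the whole other list, a choice made after seeing the data, that 50% was 5.88% stage-specific at E9.5 and 29.4% at E10.5. By that choice, E10.5-specific regions numbered 6 in place of 11 for Hand2, 3 in place of 12 for Hdac9, 0 in place of 3 for Twist1 and for Twist2, and 0 in place of 2 for Snai2. A reciprocal overlap of at least 50% made 44.9% of the E9.5 regions and 58.5% of the E10.5 regions stage-specific. The shares over all regions under these settings are not given here, so members and all regions cannot be compared under them. The values over all members stayed close when the centre had to lie inside the other region, with a score of at least 100, with the starts of all gene types, with distances from the region edge and with a promoter distance of 1 kb. With a promoter distance of 5 kb there were 12 promoter regions at E9.5 and 9 at E10.5. Without the regions nearest Hdac9, also chosen afterwards, stage-specific regions made up 20% of the 35 E9.5 regions and 42.6% of the 47 E10.5 regions. Of the values for single genes, 133 stayed close and 49 moved. Ranking by width named the same top region in 10 of 14 cases. Depth is unknown, so a weak region missing from a list may not have been detectable.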
